A study of Mus musculus with 9 samples.

Results

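The clustered histone genes were followed in RNA from bone marrow-derived dendritic cells (DCs), as 57 genes of the 55471 listed. They were chosen by name, as the genes whose symbol begins as those of the histone clusters do (H1f, H2ac, H2bc, H3c or H4c followed by a number, or the older Hist names), without pseudogene names, and with 10 or more counts in at least 3 of the 9 libraries. Of the 70 genes that matched by name, 13 missed the count minimum, and 6 of those had 0 counts in every library. The 2 members nearest above the minimum by their third-highest count were *H2ac19* (23 counts) and *H3c15* (40 counts). Just below it lay *H1f6* (6 counts), then *H2ac14* and *H2bc23* (2 counts each). All 57 members also passed edgeR's filter on low counts. There were 7 members encoding linker histone H1, 13 encoding H2A, 14 encoding H2B, 11 encoding H3 and 12 encoding H4. The name rule also took in 2 genes that lie outside the clusters, *H1f0* on chromosome 15 and *H1f10* on chromosome 6. The genes *H2aw*, *H2bu2* and *H4f16* of smaller histone clusters carry other symbols in the table and were not members. Of these, *H2aw* was higher after LPS and IFN-β (log2 fold changes of 1.90 and 1.85, edgeR adjusted p = 0.000307 and 0.000784), *H4f16* was lower (-1.12 and -0.64, edgeR adjusted p = 4.10e-06 and 0.000519), and *H2bu2* passed in neither comparison.

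The DCs had been grown from the marrow of adult female C57BL/6 mice (labelled WT) with GM-CSF, and were left unstimulated or were exposed to LPS at 100 ng/mL or to IFN-β at 1000 U/mL for 6 h. LPS, a component of the bacterial outer membrane, is sensed by TLR4, while IFN-β is a type I interferon made against viruses. Each group had 3 libraries, lettered A, B and C, and the labels do not say whether these were separate mice or cultures, so p-values measure only the spread between these libraries, which may be technical. Total RNA was freed of ribosomal RNA and was not selected for poly(A) tails, which matters for histone mRNAs. Between 33425803 and 43735199 counts per library fell on genes. Expression is given in CPM, that is, counts scaled to the size of the library multiplied by its TMM scaling factor (factors given with the processing below). The 7 DC markers that were looked up summed to 4355 to 5197 CPM in unstimulated DCs. Their sums were 6102 to 6739 CPM after LPS and 4872 to 5157 CPM after IFN-β. The 5 macrophage markers summed to 1662 to 2104, 1864 to 2416 and 2365 to 2692 CPM in the same order, and the 8 neutrophil markers to 9.61 to 25.6 CPM over all libraries. The part of these shifts in the histone results was not tested.

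Replication-dependent histone genes supply the histones that package newly made DNA, and most of their mRNA is made during S phase, the part of the cell cycle in which DNA is copied. Their genes typically have no introns and sit together in clusters, although the models of the members *H2bc4*, *H2bc6* and *H2bc22* have 2 exons. Their mRNAs usually end not in a poly(A) tail but in a short stem-loop, which the stem-loop binding protein holds and at which the U7 small nuclear ribonucleoprotein directs the cut. Some of the same genes can also give longer, polyadenylated mRNAs, which are known from cells that have stopped dividing. In culture, GM-CSF bone marrow still contains dividing precursors beside DCs.

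The stem-loop was read from the GENCODE M21 transcript models (GRCm38) as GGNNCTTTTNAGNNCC, where N is any base, on the sense strand and with the outer 6 bases on each side able to pair. It was present in the models of 36 of the 57 members. It was also found in 7 of 21832 other protein-coding genes (0.0321%), and 5 of those 7 (*H2afx*, *H2bfm*, *Hist3h2a*, *Hist3h2ba* and *Hist4h4* in that release) are histone genes that are not members, the last 3 being listed in the count table as *H2aw*, *H2bu2* and *H4f16*. Of the 21 members without it, 13 are cluster genes whose model stops within 20 bases of the stop codon, so that the place where it would lie is not annotated. A further 6 cluster genes and both genes outside the clusters lacked it in longer models. One example of each of the 6 versions is shown, because the version differed between families; the 16 bases of the stem-loop are in capitals and the 5 bases on either side in lower case, 5′ to 3′.
*H1f2*: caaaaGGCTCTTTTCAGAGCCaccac
*H3c6*: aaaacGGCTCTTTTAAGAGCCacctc
*H2ac20*: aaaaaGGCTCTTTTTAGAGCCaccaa
*H4c4*: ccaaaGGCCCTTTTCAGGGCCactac
*H4c2*: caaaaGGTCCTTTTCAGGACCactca
*H4c14*: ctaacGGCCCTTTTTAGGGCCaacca
The version of *H1f2* was shared by 20 members of the H1, H2A, H2B and H3 families and by no H4 gene. That of *H3c6* occurred in 5 H2B and H3 genes, and that of *H2ac20* in this gene alone. The 3 remaining versions, with 6, 2 and 2 members, occurred only in H4 genes.

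Promoters also set the families apart. RefSeq windows of 250 bases before to 50 bases after the start (GRCm38) were matched by symbol for 52 of the 57 members, all but *H2bc21*, *H2bc4*, *H3c1*, *H3c7* and *H4c14*. The CCAAT box (CCAAT, either strand) was in 80.8% of the members' windows and in 37.4% of all 32851 windows. It was in every H2A, H2B and H3 window but in 3 of 11 H4 windows. The TATA box (TATAAA, either strand) was in 59.6% of members and 13.6% of all windows. The octamer ATTTGCAT (either strand) was in 21.2% of members and 1.74% of all windows, namely in 5 of 13 H2A and 6 of 12 H2B windows and in no H1, H3 or H4 window. No motif contains another, and a match is only a match of letters. Windows of divergent H2A and H2B neighbours, whose starts lie 176 to 302 bases apart, share bases, so a match there can count for both families. The 150 bases before the start are shown for the H1 gene, the H3 gene and the H4 gene on which the results below turn most, with the CCAAT and TATA letters in capitals.
*H1f5*, minus strand, chr13:21780626-21780775: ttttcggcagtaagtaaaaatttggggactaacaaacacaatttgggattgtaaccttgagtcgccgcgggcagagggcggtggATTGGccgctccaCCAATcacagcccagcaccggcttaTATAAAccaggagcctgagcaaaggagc
*H3c8*, plus strand, chr13:23535268-23535417: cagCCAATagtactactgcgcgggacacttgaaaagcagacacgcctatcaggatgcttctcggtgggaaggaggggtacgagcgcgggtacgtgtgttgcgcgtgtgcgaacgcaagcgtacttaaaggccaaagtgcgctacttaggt
*H4c4*, plus strand, chr13:23581418-23581567: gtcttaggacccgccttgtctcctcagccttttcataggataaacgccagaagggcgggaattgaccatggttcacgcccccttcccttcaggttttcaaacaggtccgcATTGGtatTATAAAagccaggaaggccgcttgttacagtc
The *H1f5* window holds CCAAT on both strands and a TATA box. In the 150 bases of *H3c8* there is 1 CCAAT, at the far end, and no TATAAA. *H4c4* is 1 of the 3 H4 genes with a CCAAT box.

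Summed over all of them, the histone members were lower in LPS-activated DCs and less so in IFN-β-treated DCs. Their summed expression was 1107, 1061 and 1007 CPM in libraries A, B and C of unstimulated DCs, 513, 526 and 484 CPM after LPS, and 722, 790 and 835 CPM after IFN-β. The 3 groups did not overlap. The mean was 1058 ± 50.2 CPM (SD, n = 3) in unstimulated DCs, 508 ± 21.4 CPM after LPS and 782 ± 57.1 CPM after IFN-β, that is 48.0% and 73.9% of the unstimulated mean. As a share of all counts on genes, with no scaling factors, the members held 0.130% ± 0.00247, 0.0416% ± 0.00208 and 0.0777% ± 0.00631 (SD, n = 3) in the same order. In bulk RNA, fewer cells that make histone mRNA and less histone mRNA per cell cannot be told apart.

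**Figure D1:**
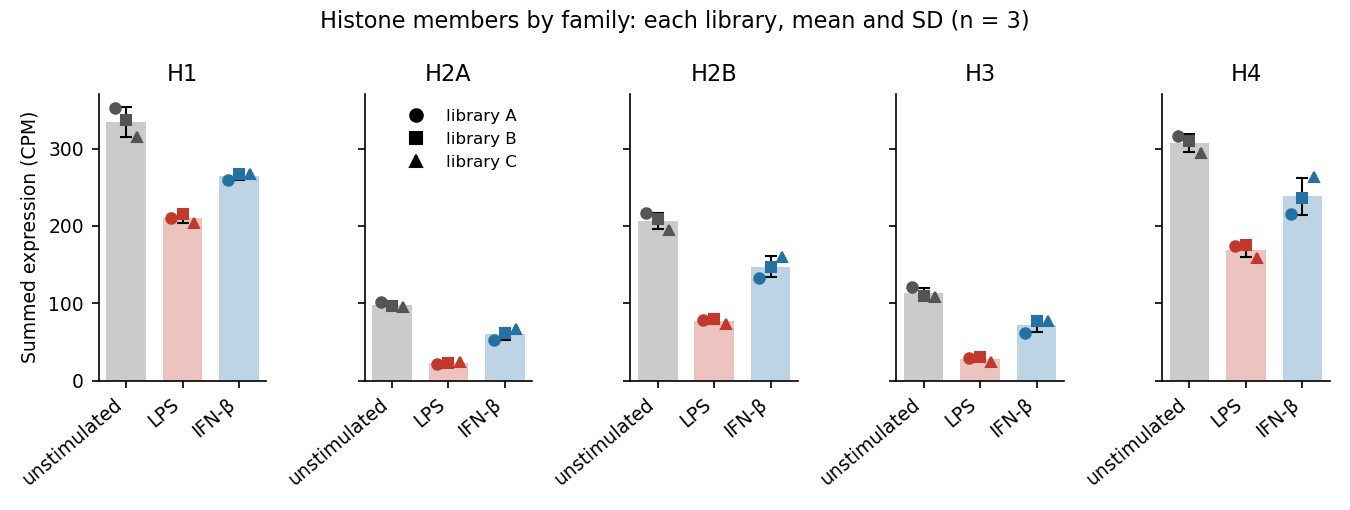
Summed expression of the histone members of each family (y axis, CPM) in unstimulated, LPS-activated and IFN-β-treated DCs. Points are libraries A, B and C, bars are means and whiskers SDs (n = 3). The H2A and H3 sums after LPS were 23.6% and 25.01% of the unstimulated means, and the H1 and H4 sums were 62.8% and 55.3%. The H1 sum includes *H1f0* and *H1f10*, which lie outside the clusters.

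The families did not fall alike. The H2A sum went from 97.8 ± 3.33 CPM (SD, n = 3) in unstimulated DCs to 23.1 ± 1.25 CPM after LPS and 60.4 ± 7.66 CPM after IFN-β. The H3 sum went from 113 ± 6.75 to 28.2 ± 3.02 and 72.2 ± 9.56 CPM, and the H2B sum from 207 ± 10.7 to 77.0 ± 3.85 and 147 ± 13.6 CPM. These are the core histones that form the nucleosome together with H4. The H4 sum went from 307 ± 11.7 to 169 ± 9.82 and 238 ± 23.8 CPM. The H1 sum went from 334 ± 19.0 to 210 ± 5.68 and 264 ± 4.54 CPM. It includes *H1f0* and *H1f10*, which lie outside the clusters and were not lower after LPS. Their means were 36.2 and 2.45 CPM in unstimulated DCs and 36.5 and 4.61 CPM after LPS. Because the families fell unequally, the make-up of the histone counts shifted after LPS. H1 genes, with *H1f0* and *H1f10* included, held 31.6% of them in unstimulated DCs and 41.4% after LPS, while H2A genes held 9.24% and 4.55%. These sums are of counts on genes of different annotated length and are not numbers of molecules.

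Gene by gene, 50 of the 57 members were lower after LPS (edgeR, adjusted p under 0.05 over all 16260 genes tested), where 35.4% of all tested genes were lower. One member was higher, where 32.8% of all tested genes were, and 6 did not pass the test. The median log2 fold change of the members was -1.95, and that of all tested genes was -0.04. After IFN-β, 43 of the 57 members were lower, against 23.3% of all tested genes, and 14 did not pass the test. None was higher by edgeR, where 23.6% of all tested genes were; 0 members were higher at an unadjusted p under 0.05 either, and 0 by DESeq2. The median log2 fold change after IFN-β was -0.67, with -0.02 for all tested genes. Both comparisons share the 3 unstimulated libraries. The change was larger in size after LPS in 53 of the 57 members, and the same count over all tested genes was not made. Calls over all tested genes were also more frequent after LPS, by the shares given here.

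IFN-β-treated DCs were also compared directly with LPS-activated DCs. Of the 57 members, 46 were higher after IFN-β than after LPS, where 25.8% of all tested genes were higher, and 1 was lower, where 23.3% were lower. The median log2 difference of the members was 1.28, and that of all tested genes 0.02. By family, the direct comparison was passed in the higher direction by 3 of 7 H1 genes, 11 of 13 H2A genes, 13 of 14 H2B genes, 10 of 11 H3 genes and 9 of 12 H4 genes. With the library letter as a block in a paired fit, *H1f2* and *H4c17* were also called higher (edgeR adjusted p = 0.0240 and 0.0116, against 0.0595 and 0.754 without it).

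**Figure D2:**
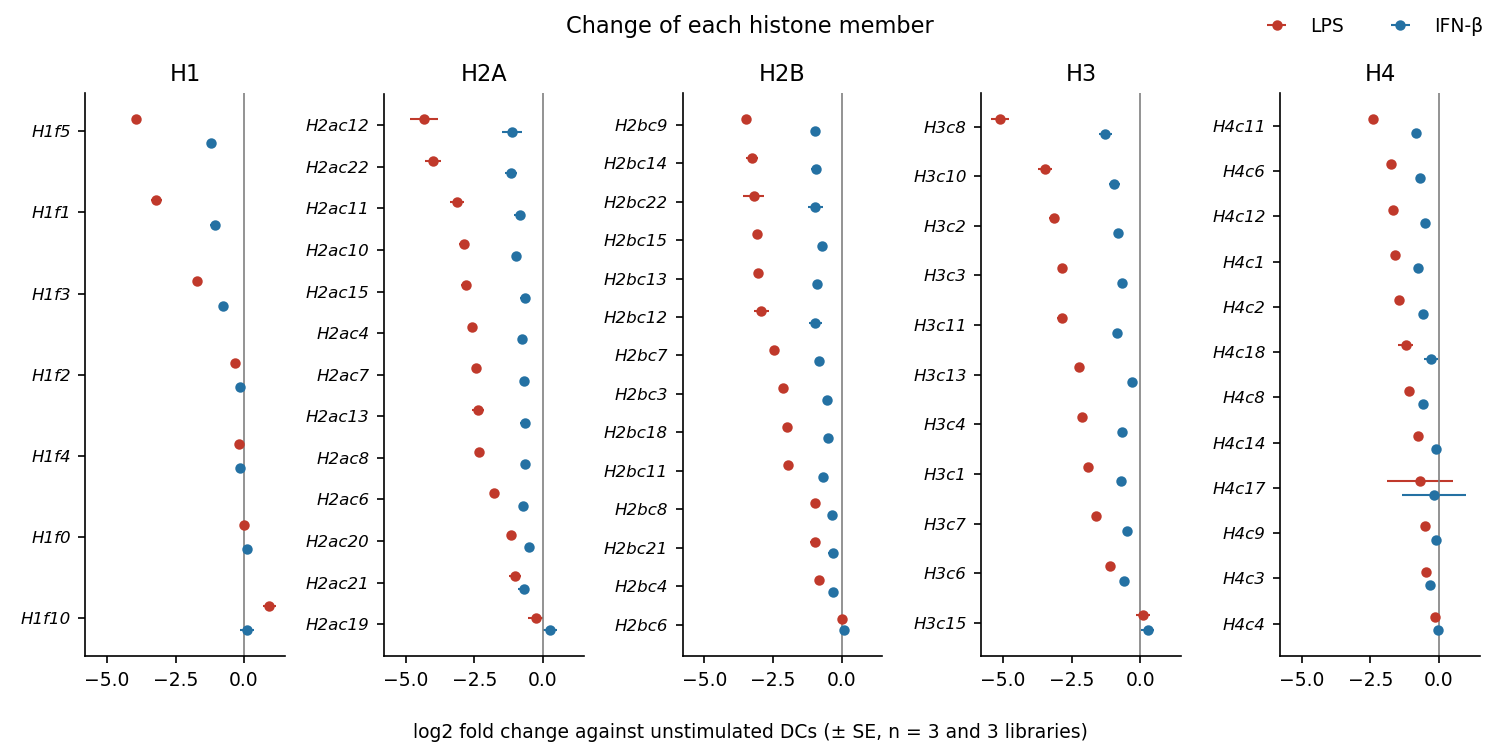
Log2 fold change of each histone member against unstimulated DCs (x axis, ± SE from the edgeR fit, 3 libraries per group), by family and in order of the LPS value. Most LPS points lie to the left of the IFN-β points of the same gene; *H3c8* has the lowest LPS value (-5.12), and *H1f10* the highest (0.92).

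Among the H1 genes, which encode the linker histones that bind the DNA between nucleosomes, the range ran from steep falls to a rise. Of 7 H1 genes, 5 were lower and 1 higher after LPS, against 35.4% and 32.8% of all tested genes. After IFN-β 3 were lower, against 23.3% of all tested genes. The median log2 fold changes of the family were -0.33 after LPS and -0.15 after IFN-β. *H1f5* (ENSMUSG00000058773, chr13:21779883-21780625, GRCm38) had 30.9, 33.7 and 30.9 CPM in unstimulated DCs, 1.77, 2.27 and 2.06 CPM after LPS, and 12.2, 14.3 and 15.2 CPM after IFN-β. No group overlapped another. Its log2 fold change was -3.96 ± 0.12 (SE, edgeR adjusted p = 2.47e-09) after LPS and -1.20 ± 0.10 after IFN-β (edgeR adjusted p = 7.43e-06). *H1f1* fell alongside, by 3.19 and 1.07 on the log2 scale. *H1f5* and *H1f1* share no stretch of 100 bases with another annotated gene.

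*H1f2* (ENSMUSG00000036181, chr13:23738808-23740367) held the most counts of all members and changed little. It had 132, 122 and 110 CPM in unstimulated DCs, 94.3, 99.7 and 95.7 CPM after LPS, and 109, 111 and 108 CPM after IFN-β. The LPS libraries lay below the unstimulated ones, and the IFN-β libraries overlapped them. The log2 fold change was -0.33 ± 0.07 after LPS (edgeR adjusted p = 0.00193) and -0.15 ± 0.07 after IFN-β (edgeR adjusted p = 0.116). *H1f4* was much like it, with 54.6, 54.1 and 50.4 CPM in unstimulated DCs, 46.7, 48.8 and 43.1 CPM after LPS and 44.4, 48.4 and 52.8 CPM after IFN-β. Its log2 fold change after LPS was -0.20 ± 0.08 (edgeR adjusted p = 0.0420), a call that DESeq2 (adjusted p = 0.118) and 5 of the fits without 1 library (unstimulated A or B, LPS A or C, or IFN-β B, adjusted p of 0.0612 to 0.140) did not make. *H1f3* lay between, with log2 fold changes of -1.71 ± 0.09 and -0.75 ± 0.09 after LPS and IFN-β. Per kilobase of annotated exon, the mean unstimulated level was 77.6 CPM for *H1f2*, 42.8 for *H1f5*, 27.5 for *H1f4*, 23.6 for *H1f1* and 9.73 for *H1f3*, whose model is 7425 bases long. After LPS the same scale gave 61.9 for *H1f2* and 2.74 for *H1f5*.

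The 2 genes outside the clusters belong to this family and encode linker histones that are made outside S phase as well. *H1f0* (chr15:79028450-79030504) had 37.8, 34.7 and 36.1 CPM in unstimulated DCs, 37.3, 36.1 and 36.1 CPM after LPS and 43.8, 37.6 and 35.2 CPM after IFN-β. The groups overlapped, and the log2 fold changes were 0.01 ± 0.08 (edgeR adjusted p = 0.903) and 0.10 ± 0.08 (edgeR adjusted p = 0.324); scaled by library size alone the LPS value was -0.57, with a shift of -0.58 in the median of all genes. *H1f10* (chr6:87980421-87981637) was the only member higher after LPS, with 2.13, 2.36 and 2.87 CPM in unstimulated DCs and 2.87, 4.98 and 5.99 CPM after LPS. The highest unstimulated and the lowest LPS library lay next to each other at the same rounded value. The log2 fold change was 0.92 ± 0.24 (edgeR adjusted p = 0.00608), and 0.34 (edgeR adjusted p = 0.253) under scaling by library size alone. After IFN-β its libraries (2.34, 2.60 and 2.96 CPM) overlapped the unstimulated ones. It was also the 1 member that was lower after IFN-β than after LPS, by 0.82 on the log2 scale (edgeR adjusted p = 0.0169), a call that was lost without LPS B or C or without IFN-β A or B (edgeR adjusted p of 0.0503 to 0.0743).

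Of 13 H2A genes, 12 were lower after LPS and 12 after IFN-β, against 35.4% and 23.3% of all tested genes. Their median log2 fold changes were -2.44 and -0.70. H2A pairs with H2B on the outer faces of the nucleosome. *H2ac20*, with the most counts of the family, had 22.0, 20.8 and 21.2 CPM in unstimulated DCs, 8.81, 8.97 and 10.9 CPM after LPS and 12.8, 15.4 and 16.6 CPM after IFN-β. The 3 groups did not overlap, and the log2 fold changes were -1.16 ± 0.11 (edgeR adjusted p = 5.12e-06) and -0.52 ± 0.11 (edgeR adjusted p = 0.00298). *H2ac15* went from 17.8, 17.5 and 15.97 CPM to 2.26, 2.30 and 2.73 CPM after LPS and 7.87, 12.5 and 11.9 CPM after IFN-β, or -2.81 ± 0.18 (edgeR adjusted p = 1.77e-07) and -0.67 ± 0.15 (edgeR adjusted p = 0.00461) on the log2 scale.

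The steepest H2A falls were in genes with few counts. *H2ac22* had 146, 139 and 130 counts in unstimulated DCs and 3, 10 and 6 counts after LPS, with 54, 53 and 61 counts after IFN-β. *H2ac12* had 71, 101 and 79 counts, then 0, 8 and 1, then 29, 39 and 35. Neither gene's groups overlapped after scaling. The log2 fold changes after LPS were -4.01 ± 0.28 for *H2ac22* and -4.33 ± 0.52 for *H2ac12*, and after IFN-β -1.16 ± 0.21 and -1.13 ± 0.36. The IFN-β call of *H2ac12* was lost without unstimulated B or IFN-β A (edgeR adjusted p = 0.0838 and 0.0833). Of the 100-base windows of their models, 83.3% and 89.5% also occur in other genes, other H2A genes among them. Reads that map to several places were not counted, so these genes can lose reads or trade them with copies. The 1 H2A member that did not pass in either comparison was *H2ac19*, with 22, 18 and 23 counts, then 13, 17 and 9, then 24, 25 and 20, and all of its windows are shared.

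Of 14 H2B genes, 13 were lower after LPS and 12 after IFN-β, against 35.4% and 23.3% of all tested genes. Their medians were -2.31 and -0.68. *H2bc4*, the H2B gene with the most counts, had 38.0, 33.4 and 31.3 CPM in unstimulated DCs, 21.9, 18.6 and 17.02 CPM after LPS and 28.8, 27.9 and 26.3 CPM after IFN-β. The groups did not overlap, and the log2 fold changes were -0.84 ± 0.10 (edgeR adjusted p = 3.24e-05) and -0.31 ± 0.10 (edgeR adjusted p = 0.0287). The IFN-β call was lost without unstimulated A or B or without IFN-β B or C (edgeR adjusted p of 0.0527 to 0.101). *H2bc6* did not pass in either comparison, at 24.4, 21.8 and 20.01 CPM, then 22.1, 23.2 and 21.5 CPM, then 20.7, 22.0 and 27.7 CPM. Its groups overlapped throughout, the log2 fold changes were 0.01 ± 0.11 and 0.09 ± 0.11, and scaled by library size alone they were -0.56 and -0.21. The *H2bc6* model overlaps *H1f4* on the same strand, and counts where both lie are uncertain. The steepest H2B fall after LPS was that of *H2bc9* (-3.48 ± 0.15), from 505, 663 and 577 counts to 38, 37 and 40.

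Of 11 H3 genes, 10 were lower after LPS and 9 after IFN-β, against 35.4% and 23.3% of all tested genes. Their medians were -2.25 and -0.67. H3 carries many of the tail modifications that mark active and silent chromatin. *H3c8* (ENSMUSG00000099517, chr13:23535422-23535951) changed most of all members in every comparison. It had 250, 248 and 266 counts in unstimulated DCs, 4, 3 and 9 after LPS, and 70, 110 and 105 after IFN-β. The groups were far apart, with log2 fold changes of -5.12 ± 0.34 after LPS (34.8-fold, edgeR adjusted p = 2.77e-07) and -1.27 ± 0.23 after IFN-β (2.41-fold, edgeR adjusted p = 0.00119), and 3.85 ± 0.36 between IFN-β and LPS (edgeR adjusted p = 9.95e-06). Its model has 95 bases after the stop codon and no stem-loop by the letters searched, and 37.1% of its windows also occur in other H3 genes.

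The H3 genes with the most counts fell less. *H3c6* went from 26.9, 20.6 and 21.5 CPM to 12.4, 11.4 and 8.69 CPM after LPS and 13.3, 17.3 and 15.02 CPM after IFN-β, and *H3c7* from 19.4, 17.1 and 17.2 CPM to 6.05, 6.32 and 5.19 CPM and 10.8, 14.4 and 13.1 CPM. For both, LPS and IFN-β libraries lay below all unstimulated ones. The log2 fold changes after LPS were -1.09 ± 0.15 for *H3c6* and -1.61 ± 0.12 for *H3c7*. *H3c15*, at 40, 41 and 27 counts, 26, 37 and 23, and 45, 38 and 36, did not pass in either comparison. *H3c13* had edgeR adjusted p = 0.0659 after IFN-β, and 0.0263 with the library letter as a block in a paired fit.

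The H4 genes, all of which encode the same short core histone, had the smallest median change of the core histones. After LPS 10 of 12 were lower (median -1.15) and after IFN-β 7 of 12 (median -0.42). Of all tested genes, 35.4% and 23.3% were lower. *H4c4* (ENSMUSG00000061482, chr13:23581598-23582735) had 72.2, 71.3 and 68.6 CPM in unstimulated DCs, 66.5, 66.4 and 58.3 CPM after LPS and 63.5, 66.1 and 76.4 CPM after IFN-β. The LPS libraries lay just below the unstimulated ones and the IFN-β libraries on both sides of them. The log2 fold changes were -0.15 ± 0.08 (edgeR adjusted p = 0.128) and -0.04 ± 0.08 (edgeR adjusted p = 0.706). *H4c3*, at 38.9, 37.8 and 35.4 CPM, fell to 25.8, 28.9 and 25.4 CPM after LPS and 24.99, 29.7 and 34.1 CPM after IFN-β, with log2 fold changes of -0.49 ± 0.11 (edgeR adjusted p = 0.00197) and -0.34 ± 0.11 (edgeR adjusted p = 0.0231). The IFN-β call was lost without unstimulated A or B or without IFN-β A or B (edgeR adjusted p of 0.0599 to 0.0689). The steepest H4 fall after LPS was in *H4c11* (-2.42 ± 0.15). Per kilobase of annotated exon, *H4c6* had the highest unstimulated level of all members, 93.8 CPM, and it stood at 28.2 after LPS; *H4c4* had 62.1 and 56.0.

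In the pair *H4c17* and *H4c18*, library A stood apart in each group. The counts of *H4c17* (ENSMUSG00000069306, chr13:21811746-21812147) were 1, 242 and 227 in libraries A, B and C of unstimulated DCs, 2, 104 and 109 after LPS, and 3, 162 and 185 after IFN-β. Those of *H4c18* (ENSMUSG00000069305, chr13:21831767-21832196) were 876, 570 and 527, then 251, 214 and 169, then 677, 426 and 403, so that library A was the highest where *H4c17* was nearly empty. The summed counts of the pair were 877, 812 and 754, then 253, 318 and 278, then 680, 588 and 588, with no such gap. Among all 16260 tested genes, *H4c17* was the only one with over 10 times fewer counts in A than in B and in C in every group. In the other direction, 1 tested gene, not a member, had over 10 times more counts in A in every group. The first 402 bases of both models differ at 1 base, G36A from *H4c17* to *H4c18* (counted from the transcript start, just before the first coding base at 39), shown in capitals within 10 bases on either side.
*H4c17*: ttttgtcttcGtcatgtctgg
*H4c18*: ttttgtcttcAtcatgtctgg
Reads that do not cover this base or the ends of the models cannot be assigned to either copy from the annotated sequence, and what made library A different was not tested.

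**Figure D3:**
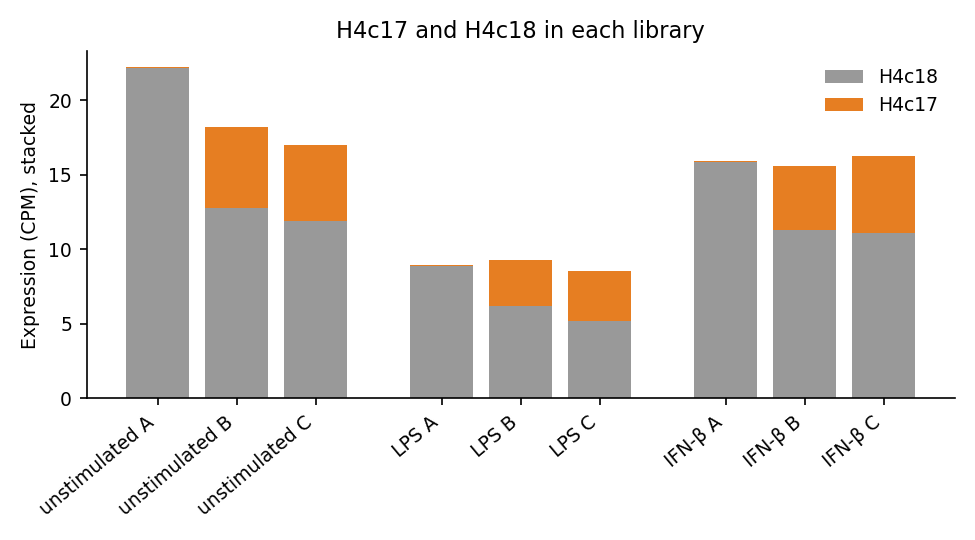
Expression of *H4c17* and *H4c18* in each library (y axis, CPM, stacked). In libraries A the *H4c17* part is too small to see (0.114% to 0.791% of the pair's counts), while in B and C it is 27.6% to 39.2%, and the stacks within a group reach similar heights.

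With the 9 libraries as they are, *H4c17* had a log2 fold change of -0.70 ± 1.21 after LPS (edgeR adjusted p = 0.623). Without the 3 libraries lettered A it was -0.72 ± 0.15 (edgeR adjusted p = 0.00303), and with the letter as a block in a paired fit -0.70 (edgeR adjusted p = 0.00143). *H4c18* was -1.21 ± 0.27 (edgeR adjusted p = 0.00205) with all libraries and -1.11 ± 0.12 (edgeR adjusted p = 5.28e-05) without those lettered A. The counts of the pair added together gave -1.10 ± 0.10 after LPS (edgeR adjusted p = 3.25e-06) and -0.27 ± 0.10 after IFN-β (edgeR adjusted p = 0.0459). After IFN-β *H4c18* alone had edgeR adjusted p = 0.387, 0.0217 with the block and 0.353 (log2 fold change of -0.14) without the libraries lettered A, where *H4c17* had -0.17 (edgeR adjusted p = 0.393). These fits were added after the values had been seen.

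The size of the fall went with how far the annotated gene extends past the stop codon. Of the 55 cluster members, 17 have models with at least 300 bases after the stop codon, and the other 38 have fewer; the split at 300 bases was chosen after the values had been seen. In the 17, the median log2 fold change after LPS was -0.84 and 14 were lower, and after IFN-β -0.31 with 9 lower. In the 38, the medians were -2.46 with 36 lower and -0.70 with 34 lower. Of all tested genes, 35.4% were lower after LPS and 23.3% after IFN-β. Across the 55 members, Spearman's rho between the bases after the stop codon and the log2 fold change was 0.52 for LPS and 0.41 for IFN-β, as a description, since all points come from the same libraries. *H2bc4*, *H1f2*, *H4c4*, *H1f4*, *H2bc6* and *H4c14* are among the 17. So are *H1f3* (4931 bases and -1.71), *H2ac6* (2058 bases and -1.77) and *H3c7* (417 bases and -1.61), which fell by more than the median of the 17. *H2bc9* went against this order, with 1258 bases after the stop codon and the steepest fall of the H2B genes, and so did *H4c11* (430 bases and -2.42) and *H3c4* (799 bases and -2.14). Among the shorter models, *H2ac19* (109 bases and -0.26) and *H4c17* (52 bases and -0.70) lay nearest to 0. The counts do not say how many reads came from the part beyond the stem-loop, so that the form of the mRNA was not measured.

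**Figure D4:**
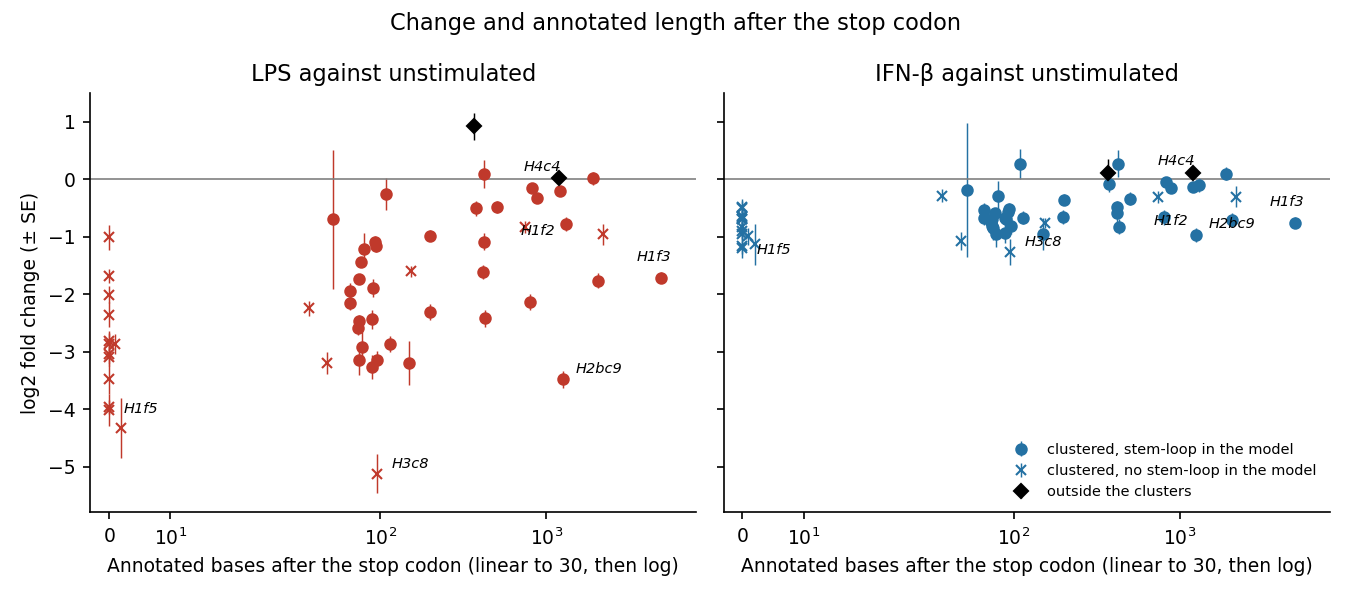
Log2 fold change after LPS (left) and IFN-β (right, y axis, ± SE) against the bases annotated after the stop codon (x axis, linear to 30 and logarithmic beyond). Circles are cluster members with the stem-loop in the model, crosses cluster members without it and diamonds the 2 genes outside the clusters. Values near 0 after LPS lie mostly on the right, with *H2bc9* (-3.48) as an exception.

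Reads shared between copies showed a weaker order. The share of a member's 100-base windows found in another gene ranged from 0% to 100% over the 55 cluster members (median 37.1%), and its Spearman's rho with the log2 fold change after LPS was -0.20. In the 17 members that share fewer than 20% of their windows the median after LPS was -1.71, and 15 were lower. In the 38 others it was -2.20, and 35 were lower, where 35.4% of all tested genes were. The 5 members that share none, *H1f1*, *H1f5*, *H2bc21*, *H4c4* and *H4c14*, had log2 fold changes of -3.19, -3.96, -0.96, -0.15 and -0.77, which spans most of the range.

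Position along the genome was also set against the change. On chromosome 13 the members form 3 blocks more than 200 kb apart, with 14 members at 21715763-21832196, 5 at 22035164-22043676 and 28 at 23531050-23764406. Their median log2 fold changes after LPS were -2.95, -2.93 and -1.75, and after IFN-β -0.83, -0.84 and -0.67. The 8 members on chromosome 3 had medians of -0.99 and -0.29, with 6 and 3 lower, where 35.4% and 23.3% of all tested genes were. A divergent H2B neighbour was found for 9 H2A genes, with 176 to 302 bases between their starts. In all 9 of these pairs both genes were lower after LPS. The 2 log2 fold changes of a pair differed by 0.04 to 1.40 (median 0.81), least between *H2ac7* (-2.44) and *H2bc7* (-2.47) and most between *H2ac12* (-4.33) and *H2bc12* (-2.93).

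Histone variants encoded outside the clusters included higher and lower genes. Most of these can be deposited independently of DNA copying and come from genes with introns and polyadenylated mRNAs. Of 9 such genes, 4 were higher and 5 lower after LPS (median -0.40, against 32.8% higher and 35.4% lower over all tested genes), and 3 were higher and 5 lower after IFN-β (median -0.22, against 23.6% and 23.3%). *H3f3b*, which encodes H3.3, rose most after LPS, by 1.75 ± 0.11 on the log2 scale (edgeR adjusted p = 2.06e-07). Most fallen was *Cenpa*, the H3 variant of centromeres, at -2.31 ± 0.09 (edgeR adjusted p = 1.13e-08). After IFN-β *Macroh2a2* rose by 2.20 ± 0.37, from a mean of 0.206 CPM, and *H2ax*, the variant phosphorylated at DNA breaks, fell by 0.94. *H2ax* is also a gene with the histone stem-loop in its model, and it fell by 1.86 after LPS.

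Factors that make and degrade histone mRNA included higher and lower genes too. Of 19 genes, 3 were higher and 8 lower after LPS, with a median of -0.11, and 3 were higher and 7 lower after IFN-β, with a median of -0.14. The lower calls were 42.1% and 36.8% of the list, against 35.4% and 23.3% of all tested genes, and the higher calls 15.8% after either stimulus, against 32.8% and 23.6%. *Slbp*, which encodes the stem-loop binding protein, had log2 fold changes of 0.11 (edgeR adjusted p = 0.155) and 0.02 (edgeR adjusted p = 0.793). *Npat*, the cell cycle-regulated activator of histone genes, was lower after LPS by 0.36 (edgeR adjusted p = 0.00630). The largest rise was that of *Tut7*, a terminal uridylyltransferase, at 1.57 after LPS and 1.06 after IFN-β, and the largest fall was that of *Dis3*, an exosome nuclease, at -1.38 and -0.92.

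Histone chaperones, which carry histones to the DNA, also included higher and lower genes, with 6 of 20 higher and 12 lower after LPS (median -0.26), and 4 higher and 10 lower after IFN-β (median -0.19). The higher calls were 30% and 20% of the list, against 32.8% and 23.6% of all tested genes, and the lower calls 60% and 50%, against 35.4% and 23.3%. *Asf1b* fell by 1.996 after LPS, and its relative *Asf1a* rose by 1.93. The largest rise was that of *Daxx*, an H3.3 chaperone, at 3.14 after LPS and 2.63 after IFN-β. *Chaf1a* and *Chaf1b*, subunits of the assembly factor that works at the replication fork, were lower after LPS by 1.40 and 1.45.

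Genes of DNA replication and mitosis were also mostly lower. Of 30 S phase genes, 26 were lower and 1 higher after LPS (median -1.48), and 22 were lower and 1 higher after IFN-β (median -0.57). Of 15 G2/M genes, 13 were lower and 1 higher after either stimulus, with medians of -2.30 and -0.84. Of all tested genes, 35.4% were lower and 32.8% higher after LPS, and 23.3% and 23.6% after IFN-β. The S phase genes summed to 746 to 855 CPM in unstimulated DCs, 360 to 380 CPM after LPS and 592 to 636 CPM after IFN-β. The markers of proliferating cells (*Mki67*, *Top2a*, *Ccnb1* and *Cdk1*) summed to 210 to 264, 161 to 188 and 151 to 175 CPM. Their part in the fall of the histone counts was not tested. Not all proliferation genes followed, as *Mki67* had 0.03 after LPS (edgeR adjusted p = 0.848). *Mki67* was lower after IFN-β than after LPS, by 0.47 on the log2 scale (edgeR adjusted p = 0.00591), unlike most histone members and most genes of these lists. In that direct comparison 27 of 30 S phase genes were higher and 1 lower. So were 12 of 15 G2/M genes, with 2 lower, and 3 of the 4 proliferation markers, with *Mki67* lower. Among all tested genes 25.8% were higher and 23.3% lower. Of the 4 proliferation markers, 3 were called lower after LPS and 4 after IFN-β.

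**Figure D5:**
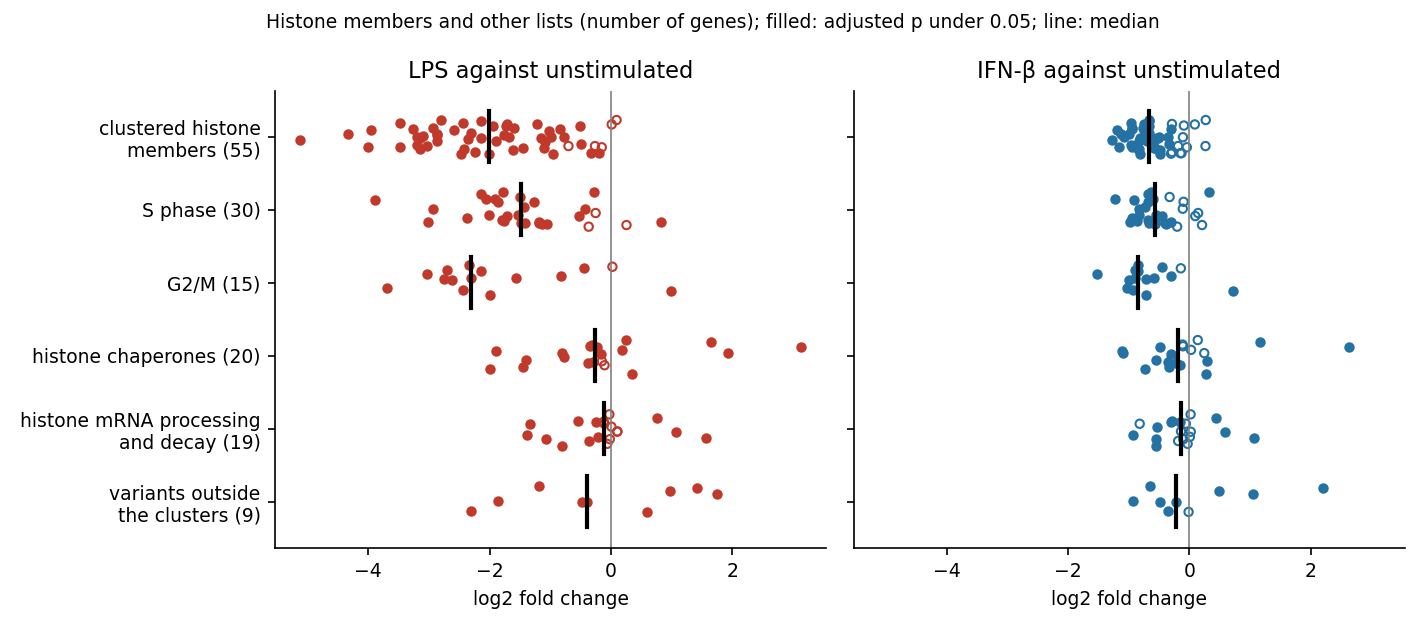
Log2 fold changes of the cluster histone members and of 5 other lists after LPS (left) and IFN-β (right). Each point is a gene, filled where the edgeR adjusted p was under 0.05, and the black line is the median, -2.01 for cluster histone members, -1.48 for S phase and -0.26 for chaperone genes after LPS.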

How the data were processed

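RNA-seq counts of 9 libraries (3 per group) were used. The authors trimmed reads with Trim Galore (0.6.0 in the submitters' processing notes), mapped them to mm10 (GRCm38) with STAR (2.7.8a in those notes, while the methods give an earlier version) and counted uniquely mapped reads on GENCODE genes with its GeneCounts option. They deposited raw counts per gene and library, with no normalization and no low-count filter; the strand setting is not given in the sources used here. Reads that map to several places or overlap several genes are not counted in this way, so near-identical histone copies can lose or trade reads.

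The counts as deposited were fitted with edgeR 4.0.16 (limma 3.58.1, R 4.3.3): filterByExpr, which kept 16260 of 55471 genes, TMM factors, 1 term per group over all 9 libraries, and quasi-likelihood F-tests with Benjamini-Hochberg adjustment over all tested genes. Genes with adjusted p under 0.05 were counted as changed. The SE is the absolute log2 fold change divided by the square root of F. The TMM factors were 1.18 to 1.26 in unstimulated, 0.783 to 0.841 in LPS and 0.977 to 1.02 in IFN-β libraries. Replicates differed by more than sampling noise in every pair, and counts have no molecular identifiers.

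Deviations from group means correlated between same-letter libraries in all 9 pairs (0.115 to 0.470 over tested genes), so the letters were taken to pair the libraries, from the data and not from the labels. The study's design has no block, and it was fitted as an alternative. The others were DESeq2 1.42.0, other scalings, filters and thresholds, the compared groups alone and each library left out. Lengths, stem-loops and shared 100-base windows came from GENCODE M21 models of GRCm38, where all 70 matching identifiers were found. Promoters came from RefSeq on GRCm38. Sequences of H2bc21, H2bc4, H3c1, H3c7 and H4c14 promoters were not used here. No column of per-sample values was left unused.

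The members and gene lists were chosen with earlier results of these data known. The genes named were, in each family, the 2 with the highest mean CPM, and in each comparison up to 4 per direction with the largest change, past the threshold and without overlap of the libraries. To these were added H1f0, the members at the count minimum, Slbp, Npat, H2ax and Mki67. Genes with the largest rise or fall were also named from the variant, processing and chaperone lists, though not every such gene. H1f1, H1f3, H2ac6, H2bc9, H3c4, H3c13, H3c15, H4c6, H4c11, H4c17, H4c18, H2bc22, H2aw, H2bu2, H4f16, Asf1a, Chaf1a, Chaf1b and the members named by position or shared windows were named after their values had been seen. H1f10 stood in the variant list and was counted with the members.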

Additional observations from a re-analysis of the deposited data

How the results depend on the processing

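The counts of lower members after either stimulus and of members higher after IFN-β than after LPS stayed within 1.5 times their main value in every alternative but 1: with a log2 fold change of at least 1 also required, 5 members were lower after IFN-β in place of 43. Each count of 1 was *H1f10*. No member was higher after LPS (0) when libraries were scaled by size only, when a log2 fold change of at least 1 was required or when only cluster members were taken. No member was lower after IFN-β than after LPS (0) in those 3 settings or at an adjusted p under 0.01, and 0 to 1 were when 1 library was left out.

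The median log2 fold change after LPS (-1.95) was -1.91 with DESeq2, -1.91 with 10 counts required in every library, -2.04 with upper-quartile factors, -1.98 without the 3 libraries lettered A (chosen after seeing the data), -2.01 for cluster members and -1.97 to -1.92 with 1 library left out. Scaling by library size only moved the median of all genes by -0.58 after LPS, -0.31 after IFN-β and 0.27 between them. It gave member medians of -2.53, -0.97 and 1.56, and ratios of summed CPM of 0.321, 0.599 and 1.87. Without *H1f2*, the ratio of summed CPM after LPS was 0.439.

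Directions turned only for members that had not passed the test in the comparison concerned. Under scaling by library size only, for example, *H2bc6* was -0.56 after LPS and -0.21 after IFN-β, *H1f0* -0.57 and -0.20, and *H1f10* -0.21 after IFN-β. With no filter on low counts *H2bc6* was -0.0047 and *H1f0* -0.0069 after LPS, with upper-quartile factors both were -0.08 (-0.0768 and -0.0799), and with 10 counts in every library *H1f0* was -0.0019. *H4c4* after IFN-β was 0.0211 without the libraries lettered A. With 1 library left out, the ranges were -0.0578 to 0.0845 (*H2bc6*, LPS), -0.0436 to 0.169 (*H2bc6*, IFN-β), -0.12 to 0.0052 (*H4c4*, IFN-β), -0.0268 to 0.0375 (*H1f0*, LPS), -0.76 to 0.40 (*H4c17*, IFN-β) and -0.48 to 0.0470 (*H4c18*, IFN-β). The cause was not tested.

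With the replicate letter as a block, in the paired fit, 51 members were lower after LPS, 45 after IFN-β and 48 were higher after IFN-β than after LPS. Beyond the calls given above for *H4c17*, *H4c18*, *H3c13* and *H1f2*, the block changed no other member's call. Depth limits the members with few counts, such as *H2ac12* (SE of 0.52 after LPS) and *H2bc22* (0.38).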
